A study of Danio rerio with 2 samples.

Results

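The cells described here, labelled ventricular, are non-cycling endocardial cells of the 72 hpf zebrafish heart that carry a small set of transcripts, among them *vcam1b*. A cell of the 72 hpf library was a member when *vcam1b*, *sat1a.1*, *basp1* and *loxl1* together gave 3 or more unique molecular identifiers (UMIs, each counting 1 captured transcript), when it held at least 1 UMI of the endothelial cadherin gene *cdh5* and none of the blood progenitor gene *myb*, and when the cell cycle genes *mki67*, *top2a*, *cdk1*, *ube2c*, *mcm2*, *mcm5* and *mcm6* were all at 0. This rule found 573 of the 4125 cells at 72 hpf, or 13.9% (exact Clopper-Pearson 95% interval 12.8% to 14.98%), among 6790 cells in the series. The study compared the heart lining at 48 and 72 hpf. Hearts of Tg(kdrl:nls-mCherry); Tg(cd41:GFP) fish, raised at 28°C, were dissected by hand, dissociated and sorted, and mCherry-positive cells were combined with cells positive for both mCherry and GFP before droplet sequencing. All fish carried both transgenes: *kdrl* drives a nuclear mCherry in endothelium and endocardium, and *cd41* drives GFP in thrombocytes and blood progenitors. There was 1 library per age, made from pooled hearts, so no statement here rests on replicates, no test was possible, and every interval covers counting error only.

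The endocardium is the endothelial layer that lines the heart chambers and faces the flowing blood. It signals to the myocardium through secreted factors such as neuregulins, deposits and remodels the matrix between both layers, and at the atrioventricular canal forms the valves. Vcam1 is a cell surface adhesion molecule that binds Integrin α4 on blood cells, and in this study it was examined for its part in holding blood cells to the endocardium.

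Within the 72 hpf library, depth was similar in members and other non-cycling cells, and higher in cycling cells and in the valve gate cells defined below. The members held 3386682 UMIs, with 3380 to 18404 per cell and a median of 5283. The median was 5296 in the 1500 other non-cycling *cdh5*-positive, *myb*-negative cells and 8068 in the 506 cells that met the same rule but for the cell cycle genes. In the 490 valve gate cells it was 6228.5. At 48 hpf all 2665 cells had a median of 10411 UMIs, against 6316 at 72 hpf, so shares of cells were also computed after thinning each cell to 2500 UMIs, a depth that every cell reached. The libraries shared 4 cell barcodes, and none of these belonged to a member. Levels are pooled CPM, the UMIs of a gene among 1000000 UMIs of the group, with exact Poisson 95% intervals. They compare groups of cells for 1 gene, not different genes with each other. A gene was called higher or lower where the pooled CPM differed at least 2-fold with 1 CPM added to both sides, among genes at 20 CPM or more in either group.

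The 4 adhesion, matrix and metabolic genes that define the members were spread unevenly among them. These values chose the cells and are given as a description. *vcam1b* (ENSDARG00000062479) was found in 314 of the 573 members, with up to 17 UMIs in a cell. *sat1a.1* (ENSDARG00000035652), which encodes an enzyme that acetylates the polyamines spermidine and spermine, was found in 480. *basp1* (ENSDARG00000053358), for a protein of the inner face of the cell membrane, was found in 222, and *loxl1* (ENSDARG00000054451), for an enzyme that crosslinks elastic fibres, in 256. Of the members, 112 carried 1 of the 4 genes, 259 carried 2, 166 carried 3 and 36 carried all 4. The sum ran from the threshold of 3 UMIs, met exactly by 139 members, to 28, with a median of 5.

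The rule cut through a continuous distribution. With the other conditions met, 992 cells had a sum of 0, 316 had 1 and 192 had 2. Cells just outside, with 2 UMIs, held *tmem88a* at 1355 CPM and *cyp1a* at 320 CPM, and members with exactly 3 UMIs held them at 1901 and 407 CPM. The gene *alcama*, for an adhesion molecule of valve endocardium, was at 63.2 CPM just outside and at 21.8 CPM just inside. The condition that removed most cells after the 4-gene sum was the cell cycle, by which alone 506 cells failed. Only by *cdh5* failed 4 cells, and only by *myb* 1 cell.

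**Figure D1:**
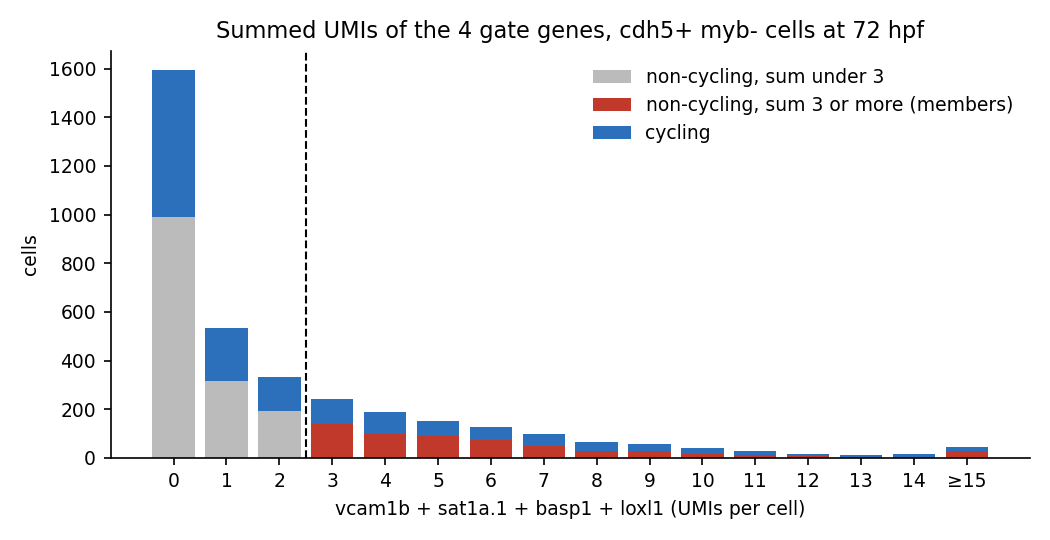
Number of *cdh5*-positive, *myb*-negative cells at 72 hpf (vertical axis) by the summed UMIs of *vcam1b*, *sat1a.1*, *basp1* and *loxl1* per cell (horizontal axis; the last bar holds 15 or more). Grey and red are non-cycling cells outside and inside the threshold (dashed line), blue are cycling cells stacked on top; counts decline from 992 non-cycling cells at 0 to 139 at 3 with no gap at the threshold.

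Of the 4 genes that were summed, *vcam1b*, *basp1* and *loxl1* were rare in the 48 hpf library, with a UMI in 1.54%, 1.31% and 1.73% of its cells, and *sat1a.1* was found in 12.6%. Over all cells *vcam1b* was at 1.82 CPM at 48 hpf (1.38 to 2.37) and 70.19 CPM at 72 hpf (67.4 to 73.1), *basp1* at 1.24 and 28.9 CPM, *loxl1* at 1.98 and 35.9 CPM, and *sat1a.1* at 16.9 and 106 CPM. After thinning, a *vcam1b* UMI was seen in 0.375% of cells at 48 hpf and 13.9% at 72 hpf. Applied to 48 hpf, the full rule found 8 of 2665 cells (0.300%), and these 8 together held 26 UMIs of *sat1a.1*, 2 of *loxl1* and none of *vcam1b* or *basp1*. A further 47 cells there met all but the cell cycle condition. Age, library and the mix of sorted cells coincide and cannot be told apart: the sample titles name blood cells for the 72 hpf library only.

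The members carried the endothelial and endocardial genes of the label. Of the endothelial list, *cdh5* was required by the rule. The other 7 genes were all detected: *egfl7*, for a secreted vascular protein, was at 776 CPM (747 to 806), *tie1*, a receptor of endothelium, at 546 CPM (521 to 571), and the VEGF receptor gene *kdrl*, whose promoter drove the sorted reporter, at 486 CPM (463 to 510). The endocardial transcription factors *nfatc1* (65.8 CPM), *gata5* (105 CPM) and *gata4* (20.1 CPM) and the flow-induced *klf2a* (966 CPM) were present. Of the 7 endocardial marker genes, only *tmem88a* and *tmem88b* were called higher than in the other non-cycling cells. The label "ventricular" could not be checked directly, because the files give no position of a cell in the heart and the sample labels name no chamber. The paper reports that *vcam1b* RNA appeared enriched in endocardium of the ventricular outer curvature and was not seen in valve cells. That staining does not place the single cells counted here, and *vcam1b* was used to choose them. Of the 6 marker genes of these cells, *tmem88a* and *cyp1a* alone were not used to choose them. *tmem88a* (ENSDARG00000056920) and its paralog *tmem88b* (ENSDARG00000069388) encode membrane proteins known as inhibitors of Wnt signalling, and *cyp1a* (ENSDARG00000098315) encodes a monooxygenase induced by the aryl hydrocarbon receptor.

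Both *tmem88* paralogs were found in nearly every member. *tmem88a* was detected in 549 members, with a median of 10 UMIs per cell and a pooled level of 2019 CPM (1971 to 2067). *tmem88b* was detected in 552, with a median of 13 UMIs and 2448 CPM (2396 to 2502). Both were seen together in 539 members (94.1%), and neither in 11. *cyp1a* was patchier, with a UMI in 333 members, a median of 1 and a maximum of 36, and the tenth of members with most *cyp1a* held 42.9% of its UMIs. In the 235 cells with *myb* and no *cdh5*, which should lack these genes and were deeper (median 20877 UMIs), a UMI was found in 6.38% of cells for *tmem88a*, 9.79% for *tmem88b* and 2.13% for *cyp1a*, against 95.8%, 96.3% and 58.1% of members. In those cells *vcam1b* and *basp1* were found in 0 of 235, which allows a share of up to 1.28%.

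No listed marker of macrophages, neutrophils, epicardium or epithelium was found among the members. An erythroid UMI was found in 10.3% of members and a cardiomyocyte one in 13.3%, and 3 or more were found in 0.524% and 4.19%. A lymphatic UMI was found in 30.9% of members, a valve endocardial one in 15.9% and a valve interstitial one in 71.7%, and 3 or more were found in 4.19%, 3.14% and 29.3%. All 4 macrophage genes, both neutrophil genes, the 3 epicardial genes *tcf21*, *tbx18* and *wt1a* and both epithelial genes were at 0 UMIs. This allows up to 0.886 CPM for each. The 9 erythroid genes summed to 24.2 CPM, the 10 cardiomyocyte genes to 55.2 CPM with 4 at 0, and the 5 valve endocardial genes to 50.5 CPM with *wnt9b* at 0. The 5 valve interstitial genes summed to 428 CPM, mostly the collagen gene *col1a2* at 364 CPM, against 1368 CPM in valve gate cells. The 6 lymphatic genes summed to 350 CPM, of which *lyve1a* gave 223 CPM from 2.97% of members. There were 24 members with 3 or more lymphatic UMIs, 17 that also reached the threshold for valve cells given below, and 3 with 3 or more erythroid UMIs. Leaving these out kept 529 members, in which *tmem88a* was at 2149.9 CPM, *cyp1a* at 590 CPM and *lyve1a* at 0.664 CPM. The low *lyve1a* value was set by the removal, which counted this gene.

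**Figure D2:**
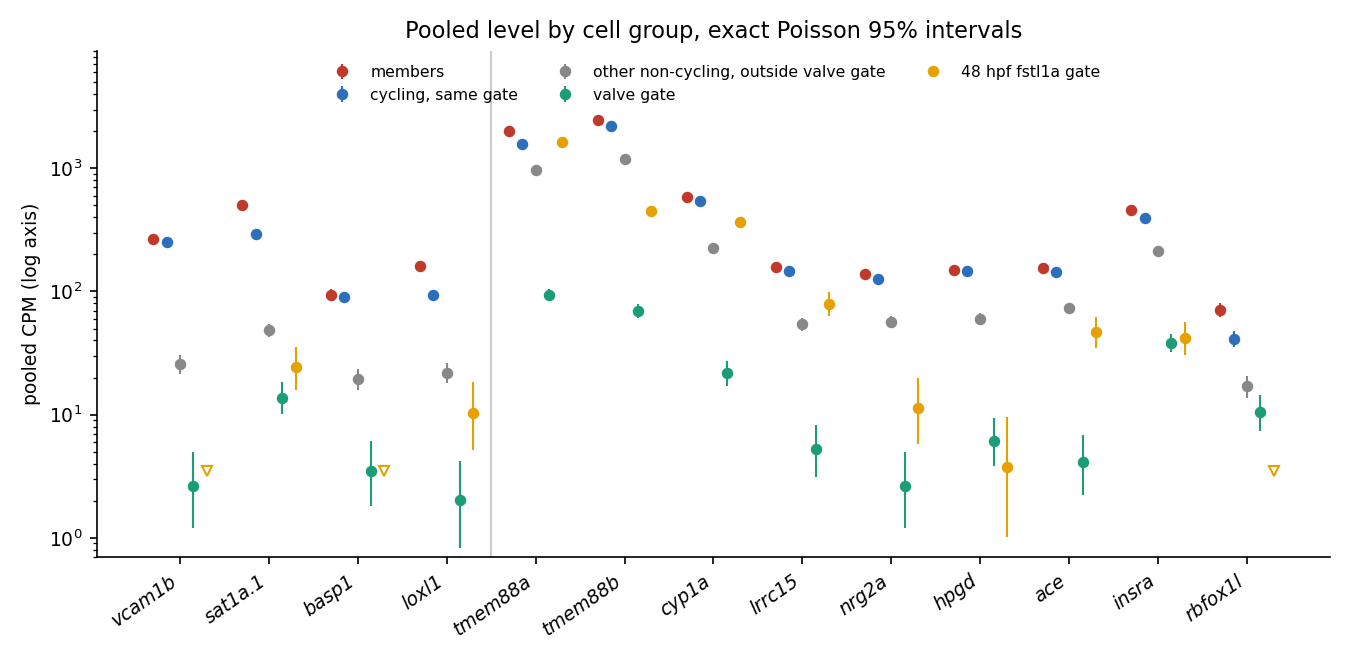
Pooled CPM on a log axis for the 4 genes of the rule (left of the grey line) and 9 genes it did not use, in members, cycling cells of the same gate, other non-cycling cells at 72 hpf outside the valve gate, valve gate cells, and 48 hpf cells of the *fstl1a* gate; vertical lines are exact Poisson 95% intervals, and open triangles mark the upper interval end where no UMI was found. Members and cycling cells lie close together for most genes, and valve gate cells lie lowest for *tmem88a*, at 94.4 CPM against 2019 CPM in members.

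The first comparison asks what sets the members apart from the other non-cycling cells of the heart lining at the same age. Against all 1500 such cells, 125 of 4601 genes (2.72%) were higher in members and 254 (5.52%) were lower, with a median log2 ratio over all genes of −0.12. The reference was mixed: 490 of its cells had 3 or more UMIs of *alcama*, *has2* and *hey2*, genes of the atrioventricular valve endocardium. Against the 1010 cells outside this valve gate, a comparison chosen after seeing the data, 40 of 4467 genes (0.895%) were higher and 126 (2.82%) were lower, with a median of −0.08. This second reference also holds cells that carry the 4 genes below the threshold. It holds lymphatic and epithelial transcripts as well, with *lyve1a* at 216 CPM and the keratin gene *krt4*, at 0 UMIs in members, at 109 CPM from 1.39% of its thinned cells, and their part in the differences was not tested. With the valve, lymphatic and erythroid cells named above left out of both sides, 47 genes were higher, 38 of them among the 40, and 162 were lower, 118 of them among the 126. All 6 marker genes were among the 40, and the 4 used by the rule had to be.

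Genes higher in members included both *tmem88* paralogs, *cyp1a*, a neuregulin and several receptors. *tmem88a* was 2.08-fold higher than in the cells outside the valve gate (2.01 to 2.16) and 3.20-fold higher than in all other non-cycling cells (3.09 to 3.31). *tmem88b* gave 2.07-fold (2.00 to 2.14) and 3.25-fold (3.15 to 3.36), and *cyp1a* 2.57-fold (2.39 to 2.76) and 3.95-fold (3.69 to 4.24). The muscle splicing factor gene *rbfox1l* (ENSDARG00000021184) showed the largest ratio among the genes named by the rule for named genes, at 70.6 CPM against 17.0 CPM, or 4.16-fold (3.26 to 5.35), and was found in 13.6% of thinned members against 3.07%. *lrrc15* (ENSDARG00000070792), for a leucine-rich repeat membrane protein, was at 158 CPM against 54.2 CPM, but a UMI of it was also found in 41.3% of the deeper blood cells, at 31.9 CPM. *hpgd* (ENSDARG00000012016), for the dehydrogenase that inactivates prostaglandins, was at 150 CPM against 59.9 CPM. *nrg2a* (ENSDARG00000077818), a neuregulin needed for trabeculation of the zebrafish ventricle, was at 138 CPM against 56.8 CPM, or 2.43-fold higher (2.10 to 2.82), in 29.5% of thinned members against 13.4%. Neither *rbfox1l* nor *nrg2a* had a UMI in the 235 blood cells.

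Receptors and hormone-processing genes were also higher. The insulin receptor gene *insra* (ENSDARG00000011948) was at 461 CPM in members and 214 CPM outside the valve gate, the growth hormone receptor gene *ghrb* at 92.1 and 40.2 CPM, and the adenosine receptor gene *adora2aa* (ENSDARG00000033706) at 107 and 47.7 CPM. *ace* (ENSDARG00000079166), for the angiotensin-converting enzyme, was at 154 and 73.3 CPM, and *agrn*, for the matrix proteoglycan agrin, at 464 and 218 CPM. *spry4*, an inhibitor of receptor tyrosine kinase signalling, was at 519 and 256 CPM. Their fold changes lay between 2.02 for *spry4* and 2.29 for *ghrb*, and the counting intervals of *insra*, *agrn*, *ace*, *spry4*, *ghrb* and *adora2aa* reached below 2.

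Genes lower in members than outside the valve gate included annexins and a water channel. The study lists *anxa2a*, *anxa1a*, *s100a10b*, *aqp1a.1* and *CABZ01030107.1* among the top genes of its valve endocardial cluster. The reference admits cells with under 3 valve gate UMIs, and the part of such cells in these differences was not tested. Among the top genes of other clusters, the study lists *fibinb* (valve interstitial) and *efemp2b*, *id2a* and *si:ch211-156j16.1* (clusters of unknown function). Cells of such clusters were not taken out of the reference, and their part was not tested either. *anxa2a* was at 119 CPM against 519 CPM, or 4.37-fold lower (3.93 to 4.86), with 56.4 CPM in the 529 members left after removal of other cells, and *anxa1a* and the annexin partner *s100a10b* were 3.35-fold and 3.53-fold lower. *aqp1a.1*, for an aquaporin, was at 47.8 CPM against 184 CPM. In the same 529 members it was at 13.6 CPM. *id2a*, a target of BMP signalling, was at 31.0 CPM against 134 CPM, *efemp2b*, for a fibulin of elastic fibres, at 27.8 against 120 CPM, and *fibinb* at 21.5 against 85.7 CPM. The uncharacterised *si:ch211-156j16.1*, *CT573383.1* and *CABZ01030107.1* were 7.60-fold, 5.08-fold and 3.87-fold lower. Against all 1500 other cells the lowest ratios included *stmn4l* at 3.54 against 88.5 CPM, *has2*, for a hyaluronan synthase, at 5.61 against 109.6 CPM and *si:ch211-1a19.3* at 7.09 against 129.5 CPM, and others are given below against valve cells alone.

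The counts by gene list against the cells outside the valve gate stand beside shares of 0.895% higher and 2.82% lower over all genes, and the medians beside −0.08. In every list with a called gene, a single one already gives a larger share than this in that direction. A larger share in a list is therefore set by its size and shows no enrichment. Part of the called genes were genes of the rule, and no list was tested. Of the 10 adhesion and niche genes tested, *vcam1b* was higher and *fn1a*, *fn1b*, *podxl* and *spp1* were lower (median −0.06). The selectin gene *sele*, for another adhesion molecule that binds leukocytes, was at 799 CPM in members and 689 CPM outside the valve gate, and the niche factor gene *cxcl12b* was at 0 UMIs in both. Of the 11 polyamine genes only *sat1a.1* was higher and only *sat1b* lower (median 0.02). The near copy *sat1a.2*, whose reads could partly be shared with *sat1a.1*, was at 1714 CPM against 1656 CPM. Of 4 elastic matrix genes *loxl1* was higher and *loxl2a* and *mfap2* were lower, and of 9 membrane proteins like MARCKS and GAP43 only *basp1* was higher, with a median of 0.57 that *marcksl1a* (1711 against 1154 CPM) and *marcksl1b* (1676 against 1100 CPM) shared. Among 5 genes of the aryl hydrocarbon response *cyp1a* was higher. Its receptor gene *ahr2* was at 224 against 167 CPM and the other response genes *cyp1b1* and *tiparp* at 82.1 against 102 CPM and 27.8 against 33.2 CPM.

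Some ligands, receptors and adaptors of growth factor pathways passed 2-fold, in either direction. In the insulin and IGF list *insra* was higher and the receptor gene *igf1rb* and the adaptor gene *grb10b* were lower (9 tested, median 0.02), with the ligand gene *igf2b* at 3177 against 2585 CPM. In the neuregulin and ErbB list *nrg2a* was higher and *nrg1* lower, at 4.72 against 22.7 CPM (5 tested, median 0.05), and the receptor gene *erbb2* was at 17.4 and 16.8 CPM. Of 20 BMP and TGFβ genes, none was higher and *id2a*, *smad6a* and the receptor gene *acvrl1* were lower (median −0.51), while *bmp10*, a ligand of the heart, was at 20.7 against 11.98 CPM. Of 13 VEGF and Tie genes *nrp2b* was lower (median −0.09), and of 13 Notch genes none differed (median 0.07).

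Of 15 basement membrane and cardiac jelly genes only *lama5* was lower, and the median was 0.38. The collagen genes *col4a1* and *col4a2* were at 461 against 283 CPM and 312 against 180 CPM, and *hapln1b*, which links hyaluronan to proteoglycans in the cardiac jelly, at 735 against 472 CPM. Of 12 junction genes *cldn5a* was lower (median −0.18), and of 13 caveolar and endocytic genes *cavin1b*, *ehd2b*, *aqp1a.1* and *aqp8a.1* were lower (median −0.69). Of 9 flow genes none passed 2-fold (median 0.03), with the mechanosensitive channel gene *trpv4* at 55.8 against 29.7 CPM, the vasoconstrictor gene *edn1* at 98.6 against 54.9 CPM and *klf2a* at 966 against 678 CPM. Of 26 transcription factors *tbx20*, *lmo2* and *hopx* were lower (median −0.01) and none was higher. The count was 0 for 22 immediate early genes (median 0.16). Of the lower genes in these lists, the study gives *acvrl1*, *nrp2b*, *cldn5a*, *cavin1b*, *ehd2b*, *tbx20*, *lmo2* and *hopx* as top genes of other clusters. It does not do so for *lama5*, *smad6a* or *aqp8a.1*. The part of cells of those clusters, pooled in the reference, was not tested.

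A list of 45 genes was taken from those that the study associated with quiescent ventricular endocardium. A few names of that list were left out, so the counts do not cover it whole, and it was chosen on these same cells and is no independent evidence. Of it, *tmem88a*, *tmem88b* and *insra* were higher than outside the valve gate and none was lower (median 0.37). Against all other non-cycling cells 13 were higher and none lower (median 0.67, all genes −0.12). One of the 13, *fabp11a*, for a fatty acid binding protein, was at 4784 CPM in members, 2677 CPM outside the valve gate and 462 CPM in valve gate cells.

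**Figure D3:**
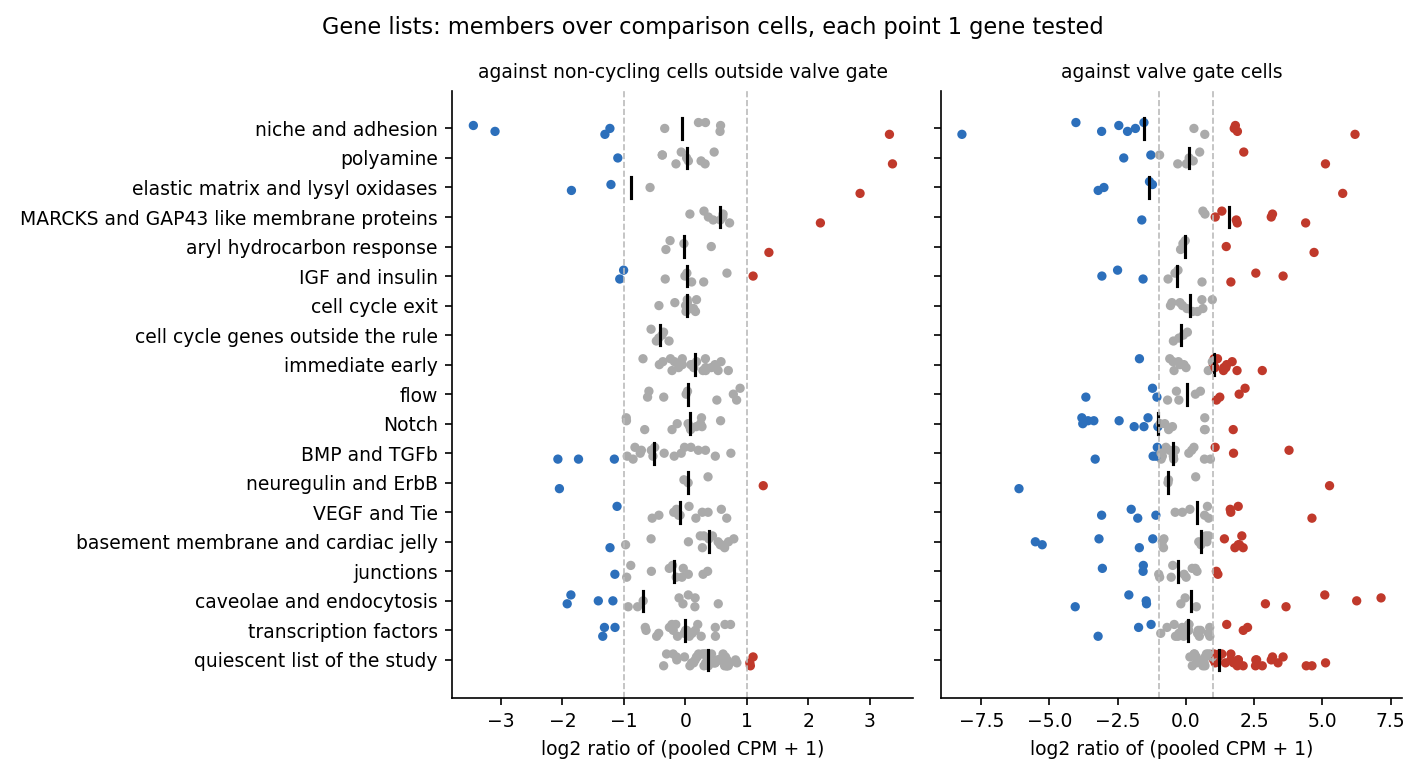
Log2 ratio of pooled CPM (1 CPM added), members over non-cycling cells outside the valve gate (left) and over valve gate cells (right), for the genes tested of each list; each point is 1 gene, red and blue mark at least 2-fold higher or lower (dashed lines), and black bars are list medians. The ranges of the horizontal axes differ. Most points on the left lie within 2-fold, with 40 of all 4467 genes higher, and more lie beyond it on the right, with 370 of 4822.

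The next comparison set the members beside valve endocardium, the other specialised lining of the heart. Of 4822 genes tested against the 490 valve gate cells, 370 (7.67%) were higher and 545 (11.3%) lower in members, with a median of −0.19. Both *tmem88* paralogs were higher: *tmem88b* was at 2448 against 69.8 CPM, 35.1-fold higher (30.8 to 40.0), *tmem88a* at 2019 against 94.4 CPM, 21.4-fold (19.1 to 24.0), and *cyp1a* at 583 against 21.6 CPM, 27.0-fold (21.4 to 34.5). Further genes in the same direction were *nrg2a* (52.4-fold, 27.4 to 115), *ace* (37.8-fold), *lrrc15* (30.0-fold), *gpr182*, for a receptor of vessel and endocardial endothelium that takes up chemokines (381 against 14.6 CPM), *hpgd* (24.5-fold) and the serotonin transporter gene *slc6a4a* (59.4 against 3.80 CPM). The endocytic adaptor gene *dab2* was at 142 against 0.876 CPM from 3 UMIs, and at 86.0 CPM in the members left after the lymphatic, valve and erythroid cells were removed. After thinning, *tmem88a* was found in 89.0% of members and 14.3% of valve gate cells, *tmem88b* in 94.8% and 8.37%, and *cyp1a* in 49.6% and 1.63%.

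Genes lower in members included ligands, a matrix cytokine and a tetraspanin. The matrix cytokine gene *spp1* was at 2.07 CPM in members and 905 CPM in valve gate cells (438-fold, 212 to 1090), and the tetraspanin gene *cd9b* at 0.886 and 523 CPM. *nrg1* was at 4.72 and 396 CPM, 83.9-fold lower (51.5 to 147), opposite to its relative *nrg2a*. The Wnt pathway ligand *wnt7aa* (1.18 and 149 CPM) and the Wnt enhancer *rspo2* (2.95 and 427 CPM), *anxa5b* (6.50 and 541 CPM), *si:ch211-214p16.1* (11.5 and 836 CPM), *INSM2* (1.18 and 174 CPM) and *tuba8l2* (0.591 and 90.6 CPM) were lower too. The kinase gene *alpk3b* had no UMI in members and was at least 66.6-fold higher in valve gate cells, taking 3 UMIs as the floor. The 10 cardiomyocyte markers summed to 617 CPM in valve gate cells and 55.2 CPM in members. Most of both sums came from *tnnt2a*, for a troponin of cardiac muscle, at 574 and 47.8 CPM. The study lists *tnnt2a* among the top genes of its valve endocardial cluster. The part of cardiomyocyte transcripts in these differences was not tested.

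More listed genes passed 2-fold against valve cells, as did more genes in all: 7.67% of the genes tested were higher and 11.3% lower. Of 17 Notch genes 9 were lower in members, among them *notch1b* (185 against 379 CPM), *notch3*, *hey1* (13.0-fold lower), *her9* (3.74-fold lower) and *jag1b*, and only the ligand gene *dlc* was higher, with a median of −1.03 against −0.19 for all genes. Among the 9, *hey2* had served to choose the valve cells. Of 22 immediate early genes 12 were higher, with *fosab* at 3962 against 1084 CPM and *egr1* at 572 against 176 CPM, and *egr3* was lower (median 1.02). Of 10 genes like MARCKS and GAP43, 7 were higher and *marcksb* lower (median 1.58), with *marcksl1a* 8.75-fold and *marcksl1b* 9.04-fold higher. Of 19 matrix genes *hapln1b*, *cemip2*, *col4a1*, *col4a2*, *gpc4* and *sdc4* were higher and *has2*, *vcana*, *lama5*, *nid2a* and *sparc* lower, *has2* being a gene of the valve gate. Of 21 BMP and TGFβ genes *bmp10*, *bmp16* and *id2b* were higher and *bmp2b*, *id2a*, *smad9* and *acvrl1* lower. Of 26 transcription factors *nr2f1a*, *nr2f2* and *irx5a* were higher and *tbx20*, *hand2* and *hopx* lower, near the shares over all genes. Of the study's quiescent list, 28 of 45 were higher and none lower (median 1.22).

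Among the non-cycling cells *tmem88a* and *cyp1a*, the markers not used by the rule, rose with the 4-gene sum. Both were chosen as markers with earlier results of these data known, so this is a description. From a sum of 0 to sums of 11 to 20, *cyp1a* went from 102 through 198, 320, 455 and 684 to 861 CPM. Within the members the bins were 3 to 5, 6 to 10 and 11 to 20 (326, 193 and 50 cells). Their intervals for *cyp1a* did not overlap, but these cover counting error only and leave out the spread between cells. The variance of *cyp1a* UMIs among thinned members was 3.32 times the mean, and the rise beyond that spread was not tested. Between a sum of 0 and sums of 11 to 20, *tmem88a* went from 370 to 2444 CPM and *lrrc15* from 19.5 to 207 CPM. *tmem88b* did not continue upward within the members, with 2340 CPM (2271 to 2411), 2605 CPM (2513 to 2698) and 2367 CPM (2208 to 2534). *hpgd* was at 69.9 CPM for a sum of 2, then at 139, 170 and 150 CPM in the same bins of members. *nrg2a* was at 123, 159 and 135 CPM and *igf2b* at 3136, 3460 and 2309 CPM in these bins. *insra* was level at 458, 468 and 464 CPM within the members. The bin at 0 includes most of the valve gate cells, with *alcama* at 332.98 CPM against 22.8 CPM for sums of 3 to 5. Valve gate cells numbered 431 of 992 at a sum of 0, 43 of 316 at 1 and 16 of 192 at 2. Their part in the rise over these bins was not tested. Median depth moved little, from 5351 UMIs at a sum of 0 to 5160 at 3 to 5 and 5869 at 11 to 20. The 4 members with sums over 20 were too few for a bin.

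**Figure D4:**
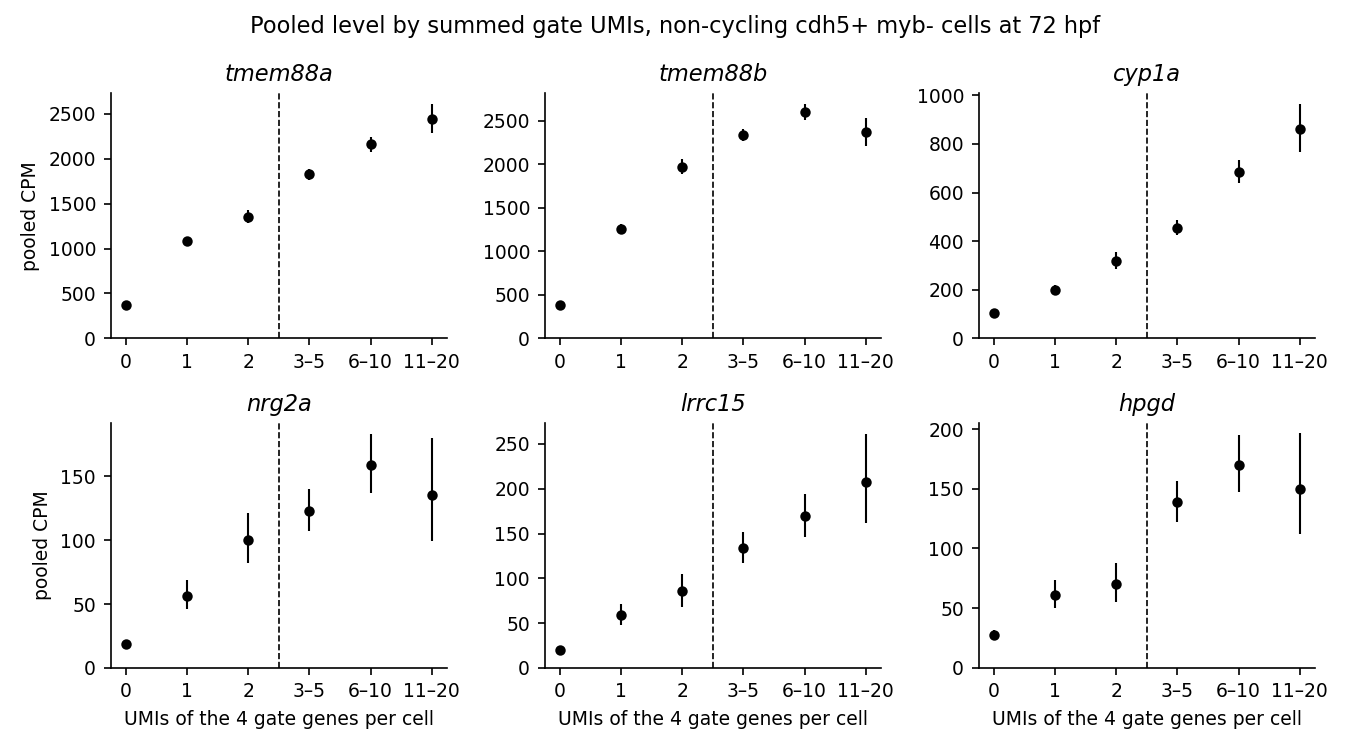
Pooled CPM of 6 genes that the rule did not use, by the number of UMIs of the 4 gate genes per cell, in non-cycling *cdh5*-positive, *myb*-negative cells at 72 hpf; points carry exact Poisson 95% intervals and members lie right of the dashed line. *cyp1a* is higher in each successive bin, up to 861 CPM. *tmem88b*, *nrg2a* and *hpgd* are highest at sums of 6 to 10, at 2605, 159 and 170 CPM.

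To see how far the cell cycle separates cells that otherwise meet the rule, the members were set beside the 506 cycling cells of the same gate. Of 4624 genes tested, 10 (0.216%) were higher and 311 (6.73%) lower in members, with a median of −0.01. All 23 tested cell cycle genes outside the rule were lower in members, with a median of −4.37, in cells chosen on 7 related genes. The replication clamp gene *pcna* was at 44.3 against 723 CPM, the nucleotide synthesis gene *rrm2* at 5.02 against 365 CPM, the nuclear import gene *kpna2* at 1.18 against 193 CPM and the tubulin-binding *stmn1a* at 22.4 against 485 CPM. The mitotic genes *aurkb*, *tpx2*, *kif11* and *mad2l1* were each under 1.5 CPM in members and at 111.6, 92.4, 84.6 and 82.8 CPM in cycling cells. The rule therefore did not remove every transcript of cycling: *pcna* was found in 20.6% of members. The 6 marker genes differed by less than 2-fold. For the 4 genes of the rule this is a description, since both groups had to reach the same sum and the same threshold admits lower CPM in the deeper cycling cells. *vcam1b* was at 264 CPM in members and 253 CPM in cycling cells (ratio 1.04, 0.956 to 1.14), *basp1* at 93.0 and 89.5 CPM (1.04, 0.894 to 1.21), *cyp1a* at 583 and 543 CPM (1.07, 1.01 to 1.14) and *tmem88b* at 2448 and 2209 CPM (1.11, 1.08 to 1.14). *sat1a.1* and *loxl1* were 1.72-fold (1.60 to 1.85) and 1.73-fold (1.52 to 1.97) higher in members. *tmem88a* was 1.29-fold higher (1.25 to 1.34).

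No gene of the cell cycle exit list, which also holds the cyclin genes *ccnd1* and *ccnd2a*, passed 2-fold higher in the members. Against cycling cells, 0.216% of all genes were higher and 6.73% lower. Of 11 tested against cycling cells none was higher and 2 were lower: the cyclin-dependent kinase inhibitor gene *cdkn1a*, at 53.4 against 227 CPM, and *rb1*, at 8.86 against 28.2 CPM (median 0.05). The inhibitor gene *cdkn1bb* was at 184 and 142 CPM and the antiproliferative *btg2* at 1826 and 1571 CPM. Against the non-cycling cells outside the valve gate, *cdkn1a* was at 53.4 and 53.1 CPM, *cdkn1bb* at 184 and 184 CPM and *btg2* at 1826 and 1610 CPM, and none of 10 genes tested passed 2-fold. Of the study's quiescent list, 0 of 45 passed 2-fold against cycling cells in either direction (median 0.23).

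The 10 genes higher in members than in cycling cells varied with the setting and with which cells were kept. After thinning every cell to 2500 UMIs 50 genes were higher, 7 of the 10 among them, and with a sum of at least 5 in both groups 27 were higher, 9 of the 10 among them. *lyve1a*, *lyve1b* and *plvapb*, genes of lymphatic and fenestrated vessels, were among the 10. The removal of lymphatic cells counted *lyve1a* and *lyve1b*, so it set these low itself, but it did not count *plvapb*. In the members left after removal of the lymphatic, valve and erythroid cells, *lyve1a*, *lyve1b* and *plvapb* were at 0.664, 0 and 2.66 CPM. *gpm6ab* and *cpn1* were no longer past 2-fold, at 53.1 and 41.2 CPM in those members. With such cells removed from both sides, 8 genes were higher, 5 of them among the 10: *ackr4b*, *cyp3c1*, *hmox1a*, *soul3* and *ube2h*. *ackr4b*, for a receptor that scavenges chemokines, was at 94.5 against 41.8 CPM (2.26-fold, 1.88 to 2.72), and *cyp3c1*, for a monooxygenase, at 126 against 57.5 CPM (2.19-fold, 1.87 to 2.56). Just under 2-fold were *glulb*, for glutamine synthetase (1.92-fold, 1.66 to 2.23), *igfbp1a*, for an IGF binding protein (1.88-fold, 1.65 to 2.15), and *selenop*, for a selenium carrier (1.77-fold, 1.63 to 1.93). Erythroid genes summed to 2462 CPM in the cycling group and 24.2 CPM in members, with 8 of the 506 cycling cells at 3 or more erythroid UMIs.

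With age, the members were compared with 128 non-cycling cells of the 48 hpf library chosen by *fstl1a*, *esm1* and *calcrla*, since the members' own rule found only 8 cells there. Of these 128 cells, 28.1% held 3 or more lymphatic UMIs, against 4.19% of members, at median depths of 8081 and 5283 UMIs. The 6 lymphatic genes summed to 339 CPM in these cells and 350 CPM in members. The groups were chosen by different genes, so they differ in more than age, and the part of cell type was not tested. Of 4491 genes tested, 517 (11.5%) were higher at 72 hpf and 360 (8.02%) lower, with a median of −0.04, and these differences include everything that differs between the libraries. The *tmem88* paralogs parted: *tmem88a* was at 2019 CPM in members and 1650 CPM at 48 hpf (1.22-fold, 1.16 to 1.29), and *tmem88b* at 2448 and 447 CPM (5.47-fold, 4.99 to 6.01). Over all cells of each library *tmem88a* was lower at 72 hpf, at 725 against 1088 CPM, and *tmem88b* higher, at 974 against 350 CPM. *cyp1a* was at 583 and 368 CPM (1.59-fold, 1.42 to 1.77). *cdh5*, required in both groups, was at 1636 and 1130 CPM, and the 4 summed genes were higher in members, which had been chosen on them.

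Genes higher in members than at 48 hpf included matrix, metabolic and signalling genes. The LIM protein gene *crip1* was at 257 CPM against no UMI, at least 91.5-fold higher with 3 UMIs as the floor, and was 3744 CPM in valve gate cells at 72 hpf. The matrix genes *postna* (periostin) and *abi3bpb* were at 81.5 CPM against no UMI and 326 against 3.75 CPM, and *rbfox1l* at 70.6 CPM against no UMI. *hpgd* was 40.1-fold higher (15.6 to 148), *fabp11a* 17.5-fold (4784 against 273 CPM), *nrg2a* 12.25-fold (6.95 to 23.9), *insra* 10.9-fold (8.13 to 15.04) and the BMP target *id2b* 4.46-fold. Over all genes in this comparison, 11.5% were higher and 8.02% lower. Of 19 BMP and TGFβ genes, 2 were higher, *bmp10* and *id2b*, which is near the share over all genes, and 6 were lower (median −0.17). The lower genes were *id1*, *id2a*, *id3*, *smad5*, *smad6a* and *acvrl1*. The small heat shock gene *hspb1* was at 206 against 9.38 CPM, the protease inhibitor gene *spint2* at 57.3 against 0.938 CPM and *gstm.3*, for a glutathione transferase, at 55.8 against 0.938 CPM, the last 2 from 1 UMI each at 48 hpf. The uncharacterised *BX901920.1* and *BX322618.1* were at 1206 against 45.0 CPM and 337 against 7.503 CPM. Of 15 basement membrane and cardiac jelly genes 7 were higher and *has2* lower (median 0.87). *has2* was among the valve genes held under 3 UMIs in sum when the 48 hpf cells were chosen.

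Lower in members than at 48 hpf were the Notch target *her15.1* (1.77 against 177 CPM), the cell surface gene *thy1* (3.25 against 85.3 CPM), the cadherin gene *cdh6* (4.13 against 82.5 CPM), the collagen prolyl hydroxylase gene *p3h2* (8.56 against 104 CPM), the fatty acid binding protein gene *fabp3* (2.95 against 56.3 CPM) and *txnipa* (20.7 against 236 CPM). The uncharacterised *si:ch211-156j16.1*, also lower than outside the valve gate, was at 11.2 against 531 CPM. The calcium binding protein gene *cabp5a* had no UMI in members and was at least 171-fold higher at 48 hpf. Of 15 VEGF and Tie genes 8 were lower, with *calcrla* among the genes that chose the 48 hpf cells, and *kdrl*, *kdr* and *nrp1a* were higher (median −1.0). Over all genes 8.02% were lower and 11.5% higher. *igf2b* was at 3177 and 3206 CPM (ratio 0.991, 0.954 to 1.03). The members lacked the 48 hpf gate gene *fstl1a*, at 1.48 against 103 CPM, and *esm1* was at 20.7 against 161 CPM.

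The genes that varied most among the members included stress, early response and chromatin genes. The ratio used grows with abundance, and the rule limits the spread of its own genes, so the order does not compare them. Over 2217 genes seen in at least 10% of thinned members, the median ratio of variance to mean was 1.05, near the value of pure counting. The AP-1 related *jdp2b* gave 11.4, *fosab* 10.8, the nucleosome binding *hmgn2* 11.1, the linker histone gene *h1-10* 9.52, *her6*, for a repressor of the Hes family, 9.49, and *fabp11a* 9.44. *si:ch73-335l21.4*, *CR383676.2*, *hsp70.3*, for a heat shock protein, and *si:dkey-85k7.7* gave 8.87, 8.69, 7.22 and 7.17. *h1-10* was the most concentrated of these 10, with 70.7% of its UMIs in the tenth of members that held most, and it was found in 34.7% of members. *tmem88a* gave 3.79 and *cyp1a* 3.32. Hearts had been dissociated enzymatically before sorting, and *hsp70.3* was at 9055 CPM in members, 9773 CPM outside the valve gate and 9044 CPM in valve gate cells; the part of dissociation in these levels was not tested.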

How the data were processed

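The deposited values are whole UMI counts for each gene in each cell, not normalized by the authors, from 2 Chromium 3′ v3.1 libraries of sorted heart cells. The submitters' processing notes name STARsolo, Scanpy and the build danRer11, and versions are not given in the sources used here. The files list 32057 genes under 31323 symbols, and counts of rows with the same symbol were summed. Members were found by raw UMIs, and both they and the gene lists were chosen with earlier results of these data known. The 19 gene lists and 14 marker lists were written by hand, and 1 of the gene lists is taken, in part, from the study. No clustering, batch correction or doublet caller was run, and cells with UMIs of other types were counted and left out as an alternative.

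UMIs were pooled per group and given as CPM with exact Poisson intervals, shares with Clopper-Pearson intervals and ratios with exact conditional intervals, all at 95% and for counting error only, since reads of 1 library come from pooled hearts. A count of 0 was bounded by 3 UMIs. Each cell was also thinned at random to 2500 UMIs. Other non-cycling cells met the same *cdh5*, *myb* and cell cycle conditions with a 4-gene sum under 3. Valve gate cells were those of them with 3 or more UMIs of *alcama*, *has2* and *hey2*. The 48 hpf cells met the same conditions with 3 or more UMIs of *fstl1a*, *esm1* and *calcrla* and under 3 of the valve genes.

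Genes named are those of the rule and lists and, per comparison and direction, the 10 with the largest ratio (1 CPM added) among genes at 50 CPM or more and found in at least 10% of cells of the higher group, without the genes that chose the cells; for variation, the 10 with the largest variance to mean ratio. *agrn*, *ghrb* and the other genes named against cells outside the valve gate come from this rule applied to a comparison added later, and *spry4*, *hmox1a*, *soul3* and *ube2h* were chosen after their values were seen. The depth of a group limits its low genes: 1 UMI is worth more CPM in the 128 cells at 48 hpf than in the members. Alternatives were the thresholds of the gate, the added CPM, the CPM minimum, thinning, means over cells, a longer cell cycle list, leaving out the 5% deepest cells, and 7 alternatives added after seeing the data. The code was tested on simulated data. Python 3.11.15, numpy 2.4.6, scipy 1.17.1, pandas 2.3.3 and matplotlib 3.10.9 were used.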

Additional observations from a re-analysis of the deposited data

How the results depend on the processing

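No paired analysis was possible because each age has 1 library. The number of members (573) was 765 and 335 with a 4-gene sum of at least 2 or 5, 302 after thinning to 2500 UMIs, 412 with a longer cell cycle list, 1079 with no cell cycle condition, and 441, 293, 494 and 506 with *vcam1b*, *sat1a.1*, *basp1* or *loxl1* left out of the sum. Removing cells with valve, lymphatic or erythroid UMIs, an alternative chosen after seeing the data like the cells outside the valve gate, left 529. Counts of genes past 2-fold, higher then lower in members, were as follows. With a minimum of 50 CPM they were 76 and 125 against other non-cycling cells, 234 and 276 against valve gate cells, 6 and 139 against cycling cells and 227 and 224 against 48 hpf. With no minimum they were 301 and 1049, 1002 and 1656, 225 and 1001, and 2901 and 1240. With 10 CPM added, 76 were higher than in other cells, 5 higher than in cycling cells and 235 lower than at 48 hpf. Against cells outside the valve gate they were 40 and 126. Against cycling cells, 27 were higher with a sum of at least 5 and 50 after thinning. Counts have no direction that could reverse. The log2 ratios of the 6 marker genes against other non-cycling cells kept their direction, but 4 of these genes had chosen the cells. For *tmem88a* and *cyp1a* the ratios under the alternatives lay between 1.42 and 1.66 and between 1.82 and 1.95. All were below the main values of 1.68 and 1.98. These alternatives were not run against the cells outside the valve gate, where both *tmem88* paralogs lay close to the 2-fold line. Genes near 20 CPM rest on few UMIs in the smaller groups, and no interval covers differences between hearts.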
